A study of Homo sapiens with 6 samples.

Results

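Heat shock proteins and their DNAJ cochaperones were followed in MDA-MB-231, a basal, mesenchymal-like breast cancer line that lacks the oestrogen and progesterone receptors. Rows of the deposited expression table were taken where a gene symbol began with HSPA, HSPB, HSPD, HSPE, HSPH or HSP and a digit, or with DNAJA, DNAJB or DNAJC and a digit, and rows of HSPA5, HSP90B1 and HSPG2 were left out. The rule kept 96 of 24108 rows, which carry 83 different names, and its exceptions removed 2 rows. All cells had been transduced for 48 h with a lentiviral LKO short hairpin RNA vector and then selected for 24 h in 0.5 µg/ml puromycin. The 3 shCtr samples carried a hairpin against luciferase, a gene that human cells do not have, and the 3 shZNF148 samples carried a hairpin against ZNF148, a zinc finger transcription factor. One hairpin per group in 1 cell line limits the model, because an effect of the hairpin sequence and an effect of losing ZNF148 cannot be told apart. The labels do not say whether the 3 replicates of a group were separate cultures, so p-values measure only the spread between these samples. The values are FPKM, fragments scaled by transcript length and by the mapped fragments of the sample, which are levels per length and can be set side by side between genes.

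HSP70 proteins hold unfolded stretches of other proteins through cycles of ATP binding and hydrolysis. J proteins, the products of the DNAJA, DNAJB and DNAJC genes, bring clients to HSP70 and stimulate its ATPase through a conserved J domain, and HSP110 proteins release the spent nucleotide. HSP90 acts later on kinases, steroid receptors and other clients, HSP60 with HSP10 folds proteins inside a chamber in mitochondria, and small HSPs hold unfolded proteins without ATP. Upon heat or proteotoxic stress the transcription factor HSF1 binds heat shock elements, inverted repeats of the pentamer nGAAn, and raises many of these genes, a programme that many tumour cells also use without heat.

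Of 61 tested member genes, 52 had a promoter in the RefSeq tables (GRCh38.p14), and the 250 bases before each start site were searched on both strands. Start sites differ between transcripts, and 38 of the 52 windows overlap an exon of some GENCODE v44 transcript, with 250 of 250 bases for HSPA8 and DNAJB11 and 230 for DNAJB12. An element of 3 alternating units, spelled GAANNTTCNNGAA or TTCNNGAANNTTC, was found in 2 of the 52 promoters (3.85%) and in 120 of 27305 promoters of all genes (0.439%). The 2-unit forms GAANNTTC and TTCNNGAA, which the longer element contains, were found in 7 member promoters (13.5%) and in 11.7% of all promoters. These 7 belonged to DNAJA1, DNAJB6, DNAJC15, HSPA1A, HSPA8, HSPB1 and HSPB8. Sites of 4 of these genes, all on the heat-inducible list described below, are given to show the element itself. Each stretch of 30 bases runs 5′ to 3′ on the gene's strand, and capitals mark the heat shock element. The stretches lie at chr11:123062345-123062374 (minus strand), chr11:123062170-123062199 (minus strand), chr7:157336865-157336894 (plus strand), chr9:33025064-33025093 (plus strand) and chr7:76302480-76302509 (plus strand), in this order.
HSPA8 upstream site: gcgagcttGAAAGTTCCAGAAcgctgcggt
HSPA8 site near the start: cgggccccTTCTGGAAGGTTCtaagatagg
DNAJB6 site: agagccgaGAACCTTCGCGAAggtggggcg
DNAJA1 site: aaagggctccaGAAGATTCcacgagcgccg
HSPB1 site: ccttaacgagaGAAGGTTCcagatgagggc

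The CCAAT box and the word CCCTCCC were searched in the same way, the first because it is a common promoter element and the second because ZNF148 is known to bind C-rich DNA. CCAAT was found in 18 of 52 member promoters (34.6%) and in 33.0% of all promoters, and CCCTCCC in 15 (28.8%) and 23.6%. DNAJB11, the member with the lowest p-value, held 3 CCAAT boxes, all on the opposite strand and so read as ATTGG, but DNAJB1 and DNAJC14, with log2 changes of -0.00 and 0.06, held 3 as well. Of the 15 genes with CCCTCCC or its complement GGGAGGG, 5 were higher and 10 lower in shZNF148. All 62 tested member rows split into 30 higher and 32 lower, but they include 6 pseudogene rows, all lower, that have no searched promoter. The splits thus come from unlike sets, and the difference between them was not tested. The 15 genes include the passing members DNAJB12 and DNAJC13, which were lower, and HSPB11, which was higher. The sites of DNAJB12 and DNAJC13 are given as examples of the letters only, and that of HSPB11 is not shown. Capitals mark these words. A match describes the letters in this window and was not tested as a binding site. The stretches lie at chr3:186570543-186570572, chr3:186570622-186570651 and chr3:186570665-186570694 (plus strand), chr10:72354920-72354949 (minus strand) and chr3:132417407-132417436 (plus strand).
DNAJB11 first box: tctccgcttctaATTGGtcaagagctgcga
DNAJB11 second box: tgtactgcgctgATTGGcttccaggcgccg
DNAJB11 box near the start: tcccgggcaacgATTGGctctcgcctaccg
DNAJB12 word: gcccttcgctcgcccggcctccCCCTCCCt
DNAJC13 word: cggggaggacgGGGAGGGcggggcagaaga

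ZNF148 stood at 3.72, 4.36 and 4.30 FPKM in shCtr and at 0.914, 0.282 and 0.834 FPKM in shZNF148. The groups did not overlap, and the log2 fold change was -1.63 (SE 0.18, adjusted p = 0.0099 by limma). Without shCtr replicate 1 or 3 the adjusted p was 0.0673 or 0.0653, with the log2 change at -1.69 or -1.61. Summed FPKM over all rows was 507312, 499660 and 497730 in shCtr and 475213, 488173 and 469594 in shZNF148. Every shZNF148 total was thus lower than every shCtr total. Scaling to the same summed FPKM, used below as an alternative, removes this difference, and its source was not tested. The read totals are unknown, but the step between low values put the depth of the other samples at 0.806 to 1.13 times that of shCtr replicate 1. Of the line's markers, VIM, CD44, AXL, CAV1 and MSN were at 174 FPKM or more in every sample. CD44 (-0.46, adjusted p = 0.0185 by limma) and AXL (-0.29, adjusted p = 0.0364) were lower in shZNF148, VIM and MSN were lower without overlap but did not pass, and their part in the results below was not tested. ESR1 was listed at 0, and PGR, FOXA1 and CDH1 stayed under 1 FPKM. GATA3 and EPCAM, which are luminal and epithelial, were detected at 7.53 to 11.1 FPKM. One marker row, ERBB2 joined with MIR4728, was at 126 FPKM in shCtr replicate 2 and 125 in shZNF148 replicate 2 against 20.1 to 24.8 in the other 4 samples, and the part of this difference between replicates in the results was not tested either.

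HSP90, HSP70, J protein and other members together made up 0.804% to 0.909% of the summed FPKM of a sample. HSP90AB1, HSPA8 and HSP90AA1 alone supplied 46.7%, 48.4% and 47.8% of member FPKM in shCtr and 45.9%, 43.1% and 45.5% in shZNF148. Of the 96 rows, 34 had a mean under 1 FPKM and were not tested, among them 15 at 0 in every sample, which left 62. The rows not tested included tissue-restricted J proteins such as DNAJB8, DNAJB13 and DNAJC5B, the muscle small HSPs HSPB3 and HSPB7, and the strictly heat-induced HSPA6, which stood at 0.246 to 0.609 FPKM.

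**Figure D1:**
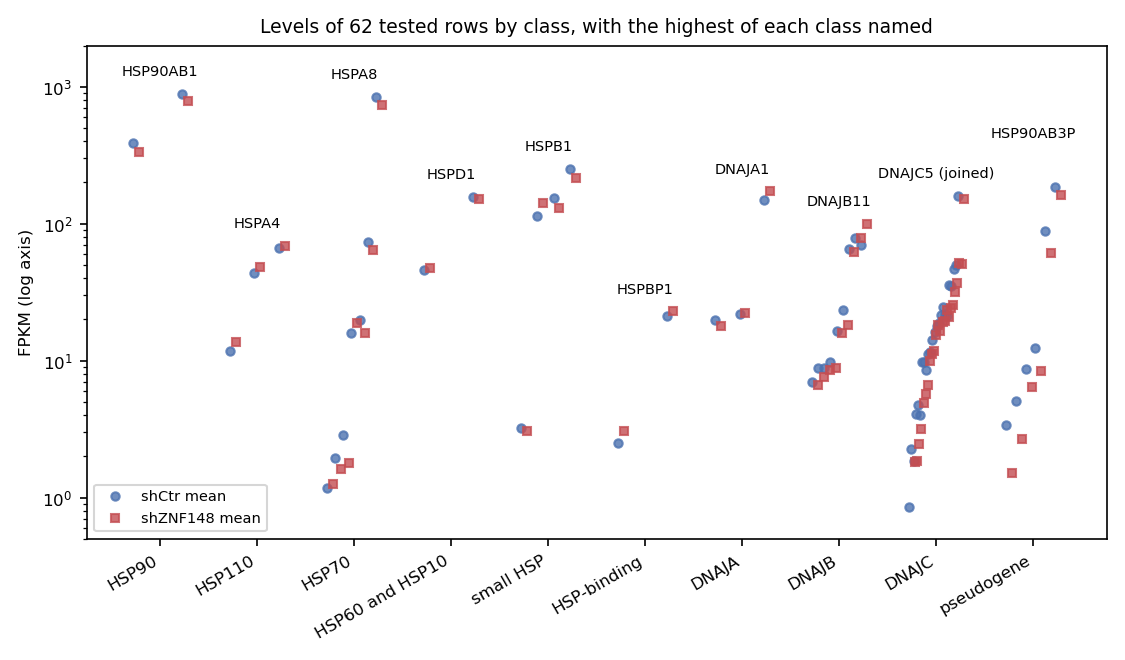
Mean FPKM (log axis) of the 62 tested member rows by class, in shCtr (circles) and shZNF148 (squares). The highest row of each class is named, HSP90AB1 and HSPA8 top the plot, and the symbols of a row mostly lie close together.

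A called row needed both an adjusted p under 0.05 and a log2(FPKM + 1) change beyond 1.5-fold. No member met both by limma, whereas 5.49% of all tested rows did (647 of 11777). With the adjusted p alone, 8 of 62 members (12.9%) passed by limma against 13.6% of all tested rows. They comprised 4 higher members, against 5.46% of all rows, and 4 lower members, against 8.13%. At an unadjusted p under 0.05 there were 22 members (35.5%, against 33.8% of all rows). In 24 members (38.7%) the 3 values of one group lay beyond all 3 of the other, against 41.0% of all tested rows. The shares at an adjusted or unadjusted p and without overlap lay close to those of all rows, while called members were fewer. Members higher in shZNF148 numbered 30 and members lower 32, with a median log2 fold change of -0.02 against 0.01 over all rows. When every sample was scaled to the same summed FPKM, 35 were higher and 27 lower, with a median of 0.04.

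Most members moved little. The log2 fold change lay between -0.25 and 0.25 in 42 of 62 members (67.7%, against 62.5% of all rows), and the 95% interval stayed within 1.5-fold either way in 48. Only DNAJC28, HSP90AB4P and HSP90AA6P exceeded 1.5-fold in the point estimate (4.84%, against 9.11% of all rows), and none of the 3 passed the adjusted p. Under other settings DNAJC28 was called higher at a log2 change of 0.60 to 0.64, and DNAJB11 at 0.59 under the same summed FPKM or without shZNF148 replicate 1. Without shZNF148 replicate 3, HSP90AB2P (-0.63), HSP90AB4P (-0.96) and HSP90B3P (-0.60) were called lower. With shCtr replicate 1, 2 or 3 left out no member passed by limma, and with shZNF148 replicate 1, 2 or 3 left out the number passing was 1, 7 and 5. Over these 6 fits the highest adjusted p of the 8 members ran from 0.0949 (DNAJB11) to 0.154 (DNAJC13), and each kept its direction.

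**Figure D2:**
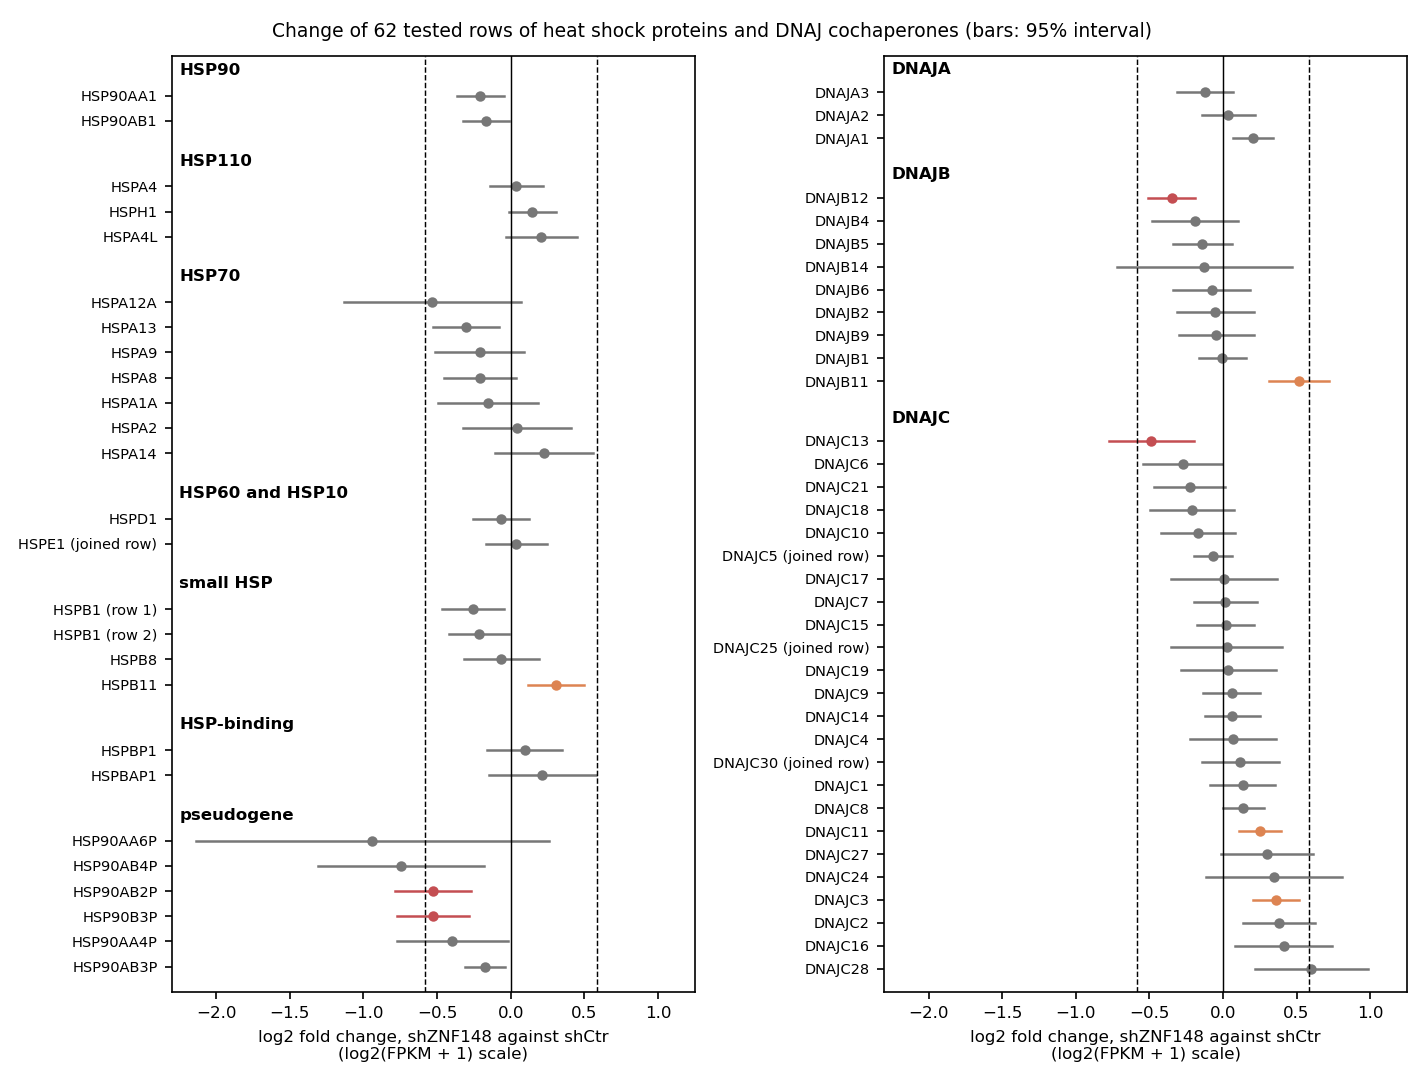
Log2 fold change of each tested member row with its 95% interval, by class, with dashed lines at 1.5-fold. Orange and red mark the 4 higher and 4 lower rows with an adjusted p under 0.05, and the 6 pseudogene rows all lie left of 0.

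HSP90 and the constitutive HSP70 were the most abundant members. Pseudogenes apart, no single row of the HSP90 or HSP70 class passed the adjusted p, and the classes were not tested as a whole. HSP90AB1, the constitutive HSP90, stood at 869, 912 and 876 FPKM in shCtr and at 800.1, 743 and 822 FPKM in shZNF148. HSP90AA1, the heat-inducible HSP90, stood at 376, 404 and 381 FPKM and at 332, 320 and 355 FPKM. Both genes were lower in every shZNF148 sample than in any shCtr sample, and 41.0% of all tested rows also had groups without overlap. The log2 fold changes were -0.17 for HSP90AB1 (95% interval -0.32 to -0.01, adjusted p = 0.125 by limma) and -0.21 for HSP90AA1 (-0.36 to -0.05, adjusted p = 0.0819). After quantile normalization they shrank to -0.06 (adjusted p = 0.646 by limma) and -0.13 (adjusted p = 0.240), so their size depended on the scaling. The log2 ratio of HSP90AA1 to HSP90AB1 was -1.21, -1.17 and -1.20 in shCtr and -1.27, -1.22 and -1.21 in shZNF148. As a share of each sample's summed FPKM the HSP90 pair overlapped between groups, at 0.245% to 0.263% in shCtr and 0.218% to 0.251% in shZNF148.

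HSPA8, the constitutive cytosolic HSP70, stood at 799, 861 and 862 FPKM in shCtr and at 804, 627 and 764 FPKM in shZNF148. The groups overlapped through shCtr replicate 1 and shZNF148 replicate 1, and replicate 2 of shZNF148 was lowest. Its log2 fold change was -0.21 (95% interval -0.45 to 0.04, adjusted p = 0.206 by limma), and -0.03 after quantile normalization (adjusted p = 0.887). HSPA9, the mitochondrial HSP70, had the same change of -0.21 (adjusted p = 0.283), with its lowest value, 51.8 FPKM, also in shZNF148 replicate 2 against 68.9 to 77.5 in the others. HSPA13, an HSP70-like protein of microsomes, stood at 20.0, 18.6 and 20.8 FPKM against 16.6, 13.98 and 17.1. Its groups did not overlap, but the change of -0.31 had an adjusted p of 0.0738 by limma. HSPA12A, a distant relative, had the widest interval of the class (-1.14 to 0.07). HSP70 had 7 tested rows, 2 higher and 5 lower, with a median of -0.21.

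The stress-induced HSP70 genes HSPA1A and HSPA1B could not be read from this table. HSPA1A was listed in 5 rows, 4 at 0 in all samples and the fifth at 1.61, 2.36 and 1.82 FPKM in shCtr and 1.65, 1.85 and 1.38 FPKM in shZNF148. HSPA1B was listed in 5 rows, none above 0.984 FPKM, and HSPA1L, a testis-rich HSP70, in 5 rows at 0. In GENCODE v44, 75.1% of the 50-base windows of HSPA1A occur in HSPA1B, with an identical run of 1715 bases, so reads from one can be given to the other. The 3 genes lie within chr6:31809619-31830254 (GRCh38). Between GABBR1 and KIFC1 (chr6:29555629-33409896), a stretch chosen after these values were seen, 146 of the 151 matched genes of the table (96.7%) had several rows and 99 had all of several rows at 0. The stretch also holds the partner genes BAG6 and PFDN6, with 7 and 5 rows at 0. Elsewhere 415 of 18231 genes (2.28%) had several rows, and 110 had them all at 0, so a listed 0 in this stretch cannot be read as absence. The reason for these repeated rows was not tested.

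HSP110 proteins, the exchange factors of HSP70, were higher by a little and none passed. HSPH1 stood at 41.8, 43.2 and 46.1 FPKM in shCtr and 48.1, 46.4 and 50.8 FPKM in shZNF148, without overlap (log2 change 0.15, 95% interval -0.01 to 0.30, adjusted p = 0.177 by limma). HSPA4L had a change of 0.21 (adjusted p = 0.198) and HSPA4 of 0.04 (adjusted p = 0.739). HSPA4L passed only without shZNF148 replicate 2, at 0.31 and an adjusted p of 0.0440. In mitochondria, HSPD1, which encodes HSP60, stood at 159, 155 and 157 FPKM against 148, 137 and 166, and the row that joins HSPE1, which encodes HSP10, with MOB4 at 43.95, 47.2 and 46.9 against 50.2, 41.8 and 50.4. Both overlapped between groups, with log2 changes of -0.07 and 0.04. The sign for HSPD1 turned under the same summed FPKM (0.0038), and that of the HSPE1 row turned without shZNF148 replicate 1 (-0.0023) or 3 (-0.0050).

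Among the small HSPs, HSPB1, also called HSP27, was listed in 2 rows. The higher row stood at 267, 255 and 230 FPKM in shCtr and 233, 216 and 199 FPKM in shZNF148, with overlap, and the other at 170, 142 and 152 against 132, 137 and 119, without overlap. Their changes were -0.21 and -0.26 (adjusted p = 0.135 and 0.0972 by limma), so both rows pointed the same way without passing. HSPB8, a partner of BAG3 in selective autophagy, stood at 2.79 to 3.48 FPKM over all samples with a change of -0.06. HSPB11 was the only row of the class that passed. It is known as IFT25, a subunit of the intraflagellar transport complex of cilia, and does not act as a heat shock chaperone. HSPB11 stood at 114, 109 and 121 FPKM in shCtr and 133, 156 and 138 FPKM in shZNF148, so that every shZNF148 value lay above every shCtr value. It rose by 0.31 (SE 0.08, adjusted p = 0.0486 by limma).

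HSPBP1, an exchange factor that acts on HSP70, and HSPBAP1, which binds HSP27, are matched by name but are not heat shock proteins. Their changes were 0.09 (adjusted p = 0.569 by limma) and 0.22 (adjusted p = 0.360), with overlap in both.

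J proteins passed in 5 of 36 tested rows (13.9%, against 13.6% of all rows). Their summed FPKM was 1015, 1037 and 1044 in shCtr and 1070, 1077 and 1108 in shZNF148, without overlap, and the same held for their share of each sample's summed FPKM, 0.200% to 0.210% against 0.221% to 0.236%. The sum is weighted to abundant rows and includes rows joined with other genes, so it does not describe the family as a whole. Of its abundant rows, DNAJB11 (mean 69.6 against 100 FPKM) and DNAJA1 (149 against 172) rose, while the row of DNAJC5 joined with TPD52L2 was lower (160 against 153). Among the 36, 21 were higher, of which 3 passed, and 15 lower, of which 2 passed (median 0.02). By class, 18 of 24 tested DNAJC rows were higher (median 0.06) and 8 of 9 DNAJB rows lower (median -0.08). Over all tested rows 5992 of 11777 were higher, and the difference between the classes was not tested. The DNAJB split became 4 higher and 5 lower under the same summed FPKM.

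DNAJB11, also called ERdj3, a soluble cochaperone of the HSP70 of the endoplasmic reticulum, had the lowest p-value of all members. It stood at 67.1, 73.9 and 67.8 FPKM in shCtr and 89.6, 104 and 107 FPKM in shZNF148. All 3 shZNF148 values lay above all shCtr values, by more than the spread within either group (69.6 ± 3.74 against 100.2 ± 9.34, SD, n = 3). DNAJB11 rose by 0.52 on the log2 scale (SE 0.09, 95% interval 0.31 to 0.72, adjusted p = 0.0200 by limma). It passed in 14 of 17 alternative settings, most of which refit the same 6 samples, and in 3 of the 6 that left out 1 library. It failed only where 1 shCtr library was left out (highest adjusted p 0.0949).

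DNAJC3, also called P58IPK, is another ER J protein and an inhibitor of the stress kinases PKR and PERK. It stood at 13.4, 14.7 and 14.2 FPKM in shCtr and 18.3, 18.1 and 18.6 FPKM in shZNF148, with the shZNF148 samples tightly grouped above shCtr. DNAJC3 rose by 0.36 (SE 0.07, adjusted p = 0.0234 by limma). It passed in 11 of 17 settings but in only 1 of the 6 that left out 1 library. DNAJC11, a mitochondrial J protein of the cristae-organizing machinery, stood at 20.6, 21.4 and 21.3 FPKM against 24.5, 25.6 and 25.8, again without overlap. It rose by 0.25 (SE 0.06, adjusted p = 0.0405) and passed in 10 of 17 settings, but in only 1 of the 6 that left out 1 library.

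DNAJB12, a tail-anchored ER membrane J protein that takes part in the degradation of misfolded membrane proteins, moved the other way from DNAJB11. It stood at 22.8, 23.7 and 23.4 FPKM in shCtr and 18.8, 17.0 and 18.6 FPKM in shZNF148, with all shZNF148 values below shCtr. DNAJB12 fell by 0.35 on the log2 scale (SE 0.07, adjusted p = 0.0265 by limma). It passed in 11 of 17 settings and in 2 of the 6 that left out 1 library. Its adjusted p was 0.0724 at most among the settings that kept all samples. DNAJB11 was at 295%, 311% and 289% of the DNAJB12 level in shCtr and at 476%, 611% and 577% in shZNF148. DNAJC13, also called RME-8, an endosomal J protein, stood at 10.2, 10.2 and 8.73 FPKM against 7.30, 5.54 and 7.16. Its groups did not overlap, it fell by 0.49 (SE 0.12, adjusted p = 0.0446), and it passed in 8 of 17 settings and in none of the 6 that left out 1 library, as did HSPB11.

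Groups did not overlap in 14 of 36 tested J protein rows (38.9%, against 41.0% of all tested rows), 9 higher and 5 lower. Without passing, DNAJC6 (-0.27), DNAJC18 (-0.21) and the joined DNAJC5 row (-0.07) were lower. DNAJA1, DNAJC2, DNAJC28, DNAJC16, DNAJC27 (0.30) and DNAJC8 (0.14) were higher. DNAJA1, a type A partner of cytosolic HSP70, stood at 146, 151 and 150.4 FPKM in shCtr and 167, 168 and 180.3 FPKM in shZNF148 (log2 change 0.20, adjusted p = 0.0618 by limma). It passed after quantile normalization (0.26, adjusted p = 0.0471) and under the same summed FPKM (0.27, 0.0377). The log2 ratio of DNAJA1 to its paralogue DNAJA2 was 2.74, 2.83 and 2.75 in shCtr and 2.84, 3.04 and 2.93 in shZNF148, without overlap. DNAJC2, a ribosome-associated J protein, stood at 7.22, 8.98 and 9.23 against 10.9, 11.7 and 11.2 (0.38, adjusted p = 0.0558). DNAJC28, a little-studied mitochondrial member, stood at 0.892, 0.670 and 0.994 against 1.496, 2.36 and 1.61 (0.60, adjusted p = 0.0546), and its shCtr level was under the 1 FPKM that the scale adds. DNAJC16, a membrane J protein of the ER, had a change of 0.41 (adjusted p = 0.0900). The most abundant DNAJC row joins DNAJC5, the synaptic vesicle J protein CSP-alpha, with TPD52L2, so its 148 to 163 FPKM cannot be assigned to one gene.

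DNAJB1, the HSP40 that heat induces with HSPA1A, was at nearly the same level in both groups. It stood at 77.0, 79.7 and 78.0 FPKM in shCtr and 76.5, 83.9 and 73.8 FPKM in shZNF148, with one shZNF148 sample above and the others below shCtr. Its log2 change was -0.00 with a 95% interval of -0.16 to 0.15, and its sign depended on the scaling. DNAJB4 (-0.19), DNAJB6 (-0.08) and DNAJC7 (0.02) also overlapped between groups.

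The heat-inducible members, a list of HSF1-driven genes from textbook knowledge, did not pass as single genes. The list also holds HSP90AB1 and HSPA8, described above as constitutive, the uncertain HSPA1A row and both rows of HSPB1. Its counts therefore do not describe heat-induced genes alone. The listed members comprised 30 rows of 17 genes, of which 15 rows were tested, 4 higher and 11 lower. None reached an adjusted p under 0.05 by limma. At an unadjusted p under 0.05 there were 5 (33.3%, against 33.8% of all rows). Their changes ran from -0.26 (HSPB1) to 0.21 (HSPA4L), with a median of -0.08 against 0.01 over all rows. Under the same summed FPKM the split was 6 higher and 9 lower with a median of -0.01. HSF1 itself stood at 54.1, 58.5 and 53.2 FPKM in shCtr and 49.3, 56.0 and 51.0 FPKM in shZNF148, with overlap (-0.08, adjusted p = 0.451).

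By compartment, 12 tested members belonged to the endoplasmic reticulum, 6 higher and 6 lower, with 2 that rose (DNAJB11, DNAJC3) and 1 that fell (DNAJB12). Mitochondrial members were higher in 7 of 10, and only DNAJC11 passed. Apart from pseudogenes, the 34 members of the cytosol, nucleus and other places split into 17 higher and 17 lower, with HSPB11 and DNAJC13 passing (5.88%). The median log2 changes of the 3 groups were -0.01, 0.04 and 0.00, and under the same summed FPKM 0.05, 0.10 and 0.07, in step with the median of all rows at 0.07. The ER-resident HSPA5 and HSP90B1 are not among the members, and for orientation HSPA5 had a change of 0.25 (adjusted p = 0.131) and the HSP90B1 row, joined with MIR3652, had a change of -0.52 (adjusted p = 0.0312 by limma, up to 0.151 over the alternatives that kept all samples and 0.125 without shCtr replicate 1).

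Pseudogene rows were all lower in shZNF148, 6 of 6 tested, and 2 of them passed (33.3%, against 13.6% of all rows). The rows of their parent genes HSP90AB1, HSP90AA1 and HSP90B1 were lower as well, at -0.17, -0.21 and -0.52. The pseudogenes are processed copies of HSP90 messenger RNAs in the genome, and reads of the parent gene may be assigned to them. HSP90AB3P stood at 178, 189 and 185 FPKM in shCtr and 165, 157 and 167 FPKM in shZNF148, a level close to that of the most abundant J proteins. As a share of HSP90AB1 in the same sample it was 20.5%, 20.8% and 21.1% in shCtr and 20.6%, 21.1% and 20.4% in shZNF148, nearly constant. In GENCODE v44, 19.3% of its 50-base windows also occur in HSP90AB1, with an identical run of 140 bases, so its row is uncertain. HSP90B3P fell by 0.53 (99.1, 81.5 and 85.7 FPKM against 60.3, 55.7 and 67.8, SE 0.10, adjusted p = 0.0270 by limma). Its share of HSP90B1 was 10.9%, 9.33% and 10.3% in shCtr and 9.35%, 10.8% and 10.1% in shZNF148, so it moved in step with the parent row. It shares 1.32% of its windows with HSP90B1, where only windows identical in all 50 bases are counted.

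HSP90AB2P and HSP90AB4P were lower also relative to HSP90AB1. HSP90AB2P stood at 12.01, 13.0 and 12.3 FPKM in shCtr and 8.11, 7.26 and 9.68 FPKM in shZNF148 and fell by 0.53 (SE 0.11, adjusted p = 0.0298 by limma). As a share of HSP90AB1 it was 1.38%, 1.43% and 1.40% in shCtr and 1.01%, 0.977% and 1.18% in shZNF148, without overlap. It shares 4.18% of its windows with HSP90AB1. HSP90AB4P stood at 4.27, 6.50 and 4.38 FPKM against 2.42, 1.76 and 3.81 and did not pass (-0.74, adjusted p = 0.0805). Its share of HSP90AB1 was 0.491%, 0.713% and 0.500% in shCtr and 0.302%, 0.236% and 0.464% in shZNF148, also without overlap, and none of its windows is shared. HSP90AA4P and HSP90AA6P, copies of HSP90AA1, overlapped between groups as a share of HSP90AA1. In GENCODE v44 (GRCh38) HSP90AB2P lies at chr4:13333414-13338657, HSP90AB3P at chr4:87891843-87894015 and HSP90B3P at chr1:91642516-91644082. Where the reads of these rows came from was not tested, and the shares of identical windows alone cannot show it.

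**Figure D3:**
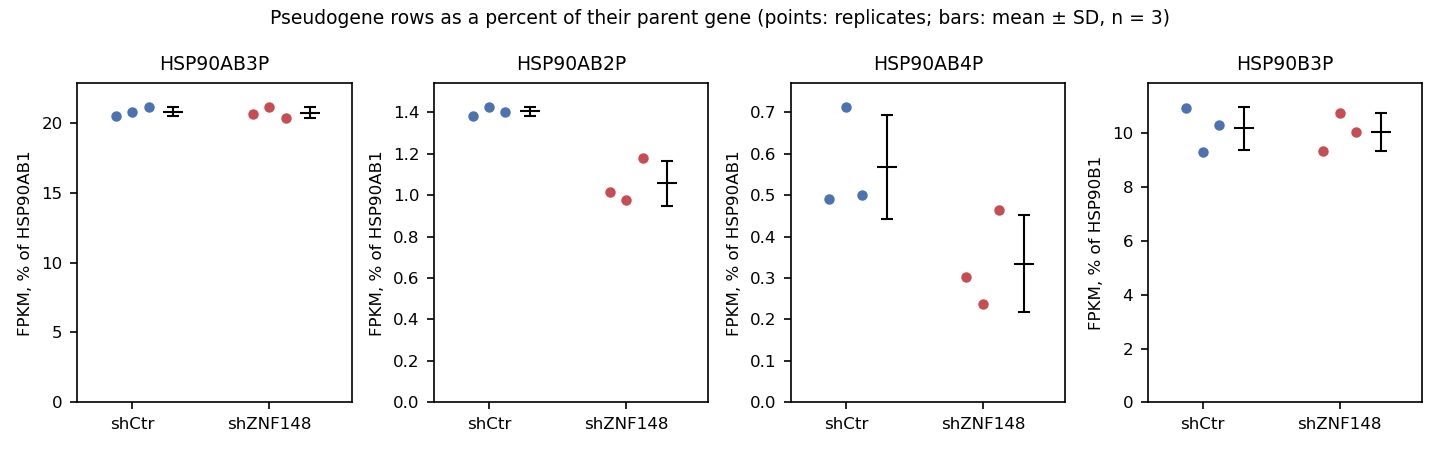
FPKM of 4 HSP90 pseudogene rows as a percent of the parent gene's FPKM in the same sample, with points for replicates and bars for mean ± SD (n = 3). HSP90AB3P stays near 21% and HSP90B3P near 10% in both groups, while HSP90AB2P and HSP90AB4P are lower in the 3 shZNF148 samples.

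Other genes of the chaperone pathway were read from a list of 57 cochaperones, exchange factors, chaperonin and prefoldin subunits and heat shock factors. Of 55 tested rows 14 were higher and 41 lower, with a median of -0.08, and the split became 25 and 30 under the same summed FPKM. None was called, and 2 (3.64%, against 13.6% of all rows) passed the adjusted p. TRAP1, the mitochondrial HSP90, stood at 51.0, 51.5 and 52.6 FPKM in shCtr and 40.6, 33.2 and 42.0 FPKM in shZNF148 and fell by 0.42 (SE 0.10, adjusted p = 0.0375 by limma). GRPEL1, the nucleotide exchange factor of mitochondrial HSPA9, stood at 45.9, 47.7 and 45.7 FPKM against 57.1, 54.2 and 58.9 and rose by 0.28 (SE 0.06, adjusted p = 0.0321). Neither overlapped between groups, and both were named after their values were seen. Without shCtr replicate 1, 2 or 3 or shZNF148 replicate 1 neither passed (highest adjusted p 0.125 and 0.120), and GRPEL1 did not pass without shZNF148 replicate 3. HSP90 cochaperones, a group in which TRAP1 was counted although it is an HSP90, were lower in 14 of 18 rows (median -0.18). This split held under the same summed FPKM. The 18 rows belong to 16 genes, because PTGES3 and UNC45A were each listed in more than 1 row. The CCT chaperonin was lower in 6 of 8 rows and prefoldin in 5 of 5, none passing, but after quantile normalization 2 of 8 and 2 of 5 were lower, and under the same summed FPKM 3 of 8 and 2 of 5.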

How the data were processed

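RNA of MDA-MB-231 cells (3 shCtr and 3 shZNF148 samples) was sequenced by the authors, and the deposited table gives FPKM per gene and sample. The submitters' processing notes name bcl2fastq 2.17.1.14, TopHat2 2.0.14, Cufflinks 2.2.1 and Cuffnorm 2.2.1 with hg18 and hg19, while the study's methods describe another aligner on GRCh38. Which of them made these FPKM was not settled, so coordinates are those of GENCODE v44 or RefSeq, matched by symbol. FPKM keeps no read counts, so no count model was run and depth limits low rows to an unknown degree.

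The 11777 of 24108 rows whose mean reached 1 FPKM were fitted with limma 3.58.1 (R 4.3.3) on log2(FPKM + 1), letting the prior variance follow the mean, and p-values were adjusted by Benjamini and Hochberg's method across these rows. Fold changes are on this scale, which understates changes of low rows. Calls needed both a 1.5-fold change and an adjusted p below 0.05. With 3 against 3, an exact two-sided permutation test cannot give a p below 0.1. Sums, motif searches and figures used Python 3.11.15, and the fit was tested on simulated data. Named members were those that passed, the top rows of each class by level, the most changed rows without overlap and the heat-inducible list, and other genes were named after their values were seen. Members and lists were chosen with earlier results of these data known.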

Additional observations from a re-analysis of the deposited data

How the results depend on the processing

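Over 17 alternatives, the named genes kept direction and side of the threshold in 527 values, lost significance in 52, gained it in 11 and turned direction in 14. Turned values were DNAJB1 0.0596 (quantile normalization) and 0.0648 (same summed FPKM), the joined DNAJC5 row 0.00285 and HSPD1 0.00378 (same summed FPKM). Leaving out 1 library gave ranges that cross 0 for DNAJB1 (-0.0569 to 0.0342), DNAJC7 (-0.0715 to 0.0694), DNAJB6 (-0.167 to 0.0332), DNAJA2 (-0.000452 to 0.1002), HSPA4 (-0.0263 to 0.0784) and the joined HSPE1 row (-0.00499 to 0.126). Calls over all rows, 647, were 280 with a pseudocount of 5 FPKM, 315 with the replicate block and 22 (without shCtr replicate 3) to 566 leaving out 1 library. The same summed FPKM gave 339 higher and 326 lower calls (51.0% higher) against 216 and 431 (33.4%), and moved the median of all rows to 0.07. Members called, 0, were 1 without a variance trend, with quantile normalization, with rows listed at 0 removed or with the rows of a symbol summed, 2 under the same summed FPKM and 0 to 3 leaving out 1 library. Members with an adjusted p under 0.05, 8, were 1 with the replicate block and 0 to 7 leaving out 1 library. Partner genes with an adjusted p under 0.05, 2, were 1 without a filter on low values, with the block or under the same summed FPKM and 0 to 2 leaving out 1 library, and partner genes called, 0, were 1 with the block. ZNF148 ranged from -1.74 to -1.45 leaving out 1 library. The cause was not tested. Samples with the same replicate number did not deviate together (r = 0.00, -0.09 and 0.03 for replicates 1 to 3), so the numbers were not taken to pair the samples, although the joined ERBB2 row was high in replicate 2 of both groups, and under the block only DNAJB11 of the members passed (adjusted p = 0.0482).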
